A study of Mus musculus with 12 samples.

Results

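The 8 genes described here encode proteins of the microRNA (miRNA) processing and export pathway: Dgcr8, Drosha, Ddx5, Ddx17, Xpo5, Dicer1, Tarbp2 and Prkra. They were chosen by name, as known factors of the pathway, from the 51467 mouse genes in the count table, and all 8 passed the filter on low counts that 14033 genes passed. Total RNA depleted of rRNA and newly made RNA were sequenced from mouse embryonic stem cells (ESCs) in 12 libraries, 3 for each combination of wild-type (WT) or Dgcr8 knockout (KO) cells with total RNA or 4sU-labelled RNA. 4sU (4-thiouridine) is a uridine analog that cells build into RNA while it is being made, so that this nascent RNA can be tagged with biotin and pulled down, and the ratio of total to nascent RNA serves as a relative measure of RNA stability. The WT cells were the V6.5 line and the KO cells a single line that titles and genotype labels give as Dgcr8 KO (another label of the same samples reads DDX8KO), both grown in serum with LIF and kinase inhibitors and both labelled with 500 uM 4sU for 30 min before RNA was taken for either assay. Because each genotype was 1 line, the line and the loss of Dgcr8 cannot be told apart, and because the labels do not say that replicates were separate cultures, p-values measure the spread between these samples only.

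MiRNAs are made in steps. In the nucleus the Microprocessor, formed by the RNase III enzyme DROSHA and its RNA-binding cofactor DGCR8, cuts a hairpin out of a long primary transcript, and the DEAD-box helicases DDX5 (p68) and DDX17 (p72) associate with it. XPO5 carries the hairpin to the cytoplasm, where the RNase III enzyme DICER1 trims it to a duplex with the help of the double-stranded-RNA-binding proteins TARBP2 (TRBP) and PRKRA (PACT). The Microprocessor is also known to cut hairpins that lie in the Dgcr8 mRNA itself.

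Library totals ran from 4593914 to 9295245 counts, with 4593914 to 6005526 in the WT 4sU, 4775267 to 4998675 in the KO 4sU, 6873708 to 9295245 in the WT total and 7184551 to 9215024 in the KO total libraries. All 8 ESC markers were above 3 CPM (counts scaled to the library's size) in every group, whereas none of 6 fibroblast markers was, and the fibroblast markers summed to at most 3.92 CPM in any library. Of 4 extraembryonic endoderm, 3 trophoblast and 3 neural markers, 1 or 2 of each list were above 3 CPM in each group. The neural markers summed to 10.8 to 14.2 CPM in WT and 15.0 to 15.8 CPM in KO total libraries. In 4sU libraries they summed to 31.2 to 33.0 CPM in WT and 41.7 to 43.6 CPM in KO cells. These sums did not overlap between genotypes, but most of each was Sox1. Scaled by TMM, Sox1 was at 25.8 to 27.7 CPM in WT and 34.1 to 37.4 CPM in KO 4sU libraries. In total libraries Sox1 overlapped, at 9.68 to 14.4 CPM in WT and 13.7 to 15.0 CPM in KO cells. Neurod1 was instead lower in KO 4sU libraries, at 2.93 to 3.38 CPM in WT and 1.72 to 2.86 CPM in KO cells. The part of these markers in the results was not tested. In bulk RNA, fewer cells of a type and less RNA per cell cannot be told apart.

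The Dgcr8 mRNA contains 2 annotated miRNA hairpins, whose sequences (RefSeq, GRCm38.p6) are shown because they lie in the transcript that fell most among the 8. Mir1306 lies at chr16:18284239-18284317 on the minus strand, wholly within the coding part of an exon, and the hairpin of miR-3618 (gene Gm24572) lies at chr16:18284550-18284637 on the minus strand, wholly in the untranslated part of the same exon. Capitals mark the mature arms in the hairpin, and the seed (bases 2 to 8) in each mature miRNA.
Mir1306 hairpin: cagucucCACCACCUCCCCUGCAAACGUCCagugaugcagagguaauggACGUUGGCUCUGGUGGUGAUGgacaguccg
mmu-miR-1306-5p: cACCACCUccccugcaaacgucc
mmu-miR-1306-3p: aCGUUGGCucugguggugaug
mmu-miR-3618-5p: uGUGAUUUccaauaauugaggc
mmu-miR-3618-3p: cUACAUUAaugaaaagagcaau
No seed was shared among these 4 mature miRNAs. Neither hairpin gene had a count in any of the 12 libraries. Reads that overlapped 2 genes on the same strand were counted for neither gene, so these zeros say nothing about whether the hairpins were made.

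Dgcr8 (ENSMUSG00000022718.11, mm10 chr16:18253948-18289249, minus strand), the gene targeted in the KO line, was lower in KO cells in both RNA fractions, and more so in total than in nascent RNA. In total RNA its level was 101, 111 and 92.5 CPM in the 3 WT libraries and 33.6, 34.1 and 32.0 CPM in the 3 KO libraries. The groups did not overlap, and the KO mean was 32.8% of the WT mean. The fitted log2 change was -1.60 (SE 0.0848, limma adjusted p = 6.63e-17). In nascent RNA its level was 110, 118 and 107 CPM in WT and 71.2, 77.3 and 86.8 CPM in KO cells, again with no overlap, and the KO mean was 70.2% of the WT mean. The nascent RNA fell by 0.51 (log2, SE 0.0787, limma adjusted p = 1.95e-06). The difference between these changes was tested as the interaction of genotype and assay, and the total-to-nascent ratio fell by 1.09 (log2, SE 0.116, 95% confidence interval -1.33 to -0.86, limma adjusted p = 3.11e-08). Without KO replicate 3 this ratio changed by -0.9995, so that it no longer exceeded the limit of 1 and the call was lost. Reads were counted over the exons of the gene together, between 222 and 298 of them in each KO total library. Transcripts of the altered allele were therefore counted with any others. A change in the allele itself cannot be told apart from the loss of the protein.

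Drosha (ENSMUSG00000022191.15, chr15:12824815-12935290, plus strand), the nuclease partner of DGCR8, was higher in KO cells, by a similar amount in both fractions. Its total RNA level was 171, 172 and 172 CPM in WT and 211, 206 and 207 CPM in KO libraries. The replicates of a genotype were close together and the genotypes did not overlap. Total Drosha RNA rose by 0.28 (log2, SE 0.0537, limma adjusted p = 3.62e-05) and nascent RNA by 0.27 (SE 0.0661, limma adjusted p = 0.00079). The nascent levels were 112, 93.1 and 101 CPM in WT and 123, 124 and 123 CPM in KO cells. No change in the total-to-nascent ratio of Drosha was detected, with a difference of 0.01 (log2) and a 95% confidence interval of -0.17 to 0.18.

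**Figure D1:**
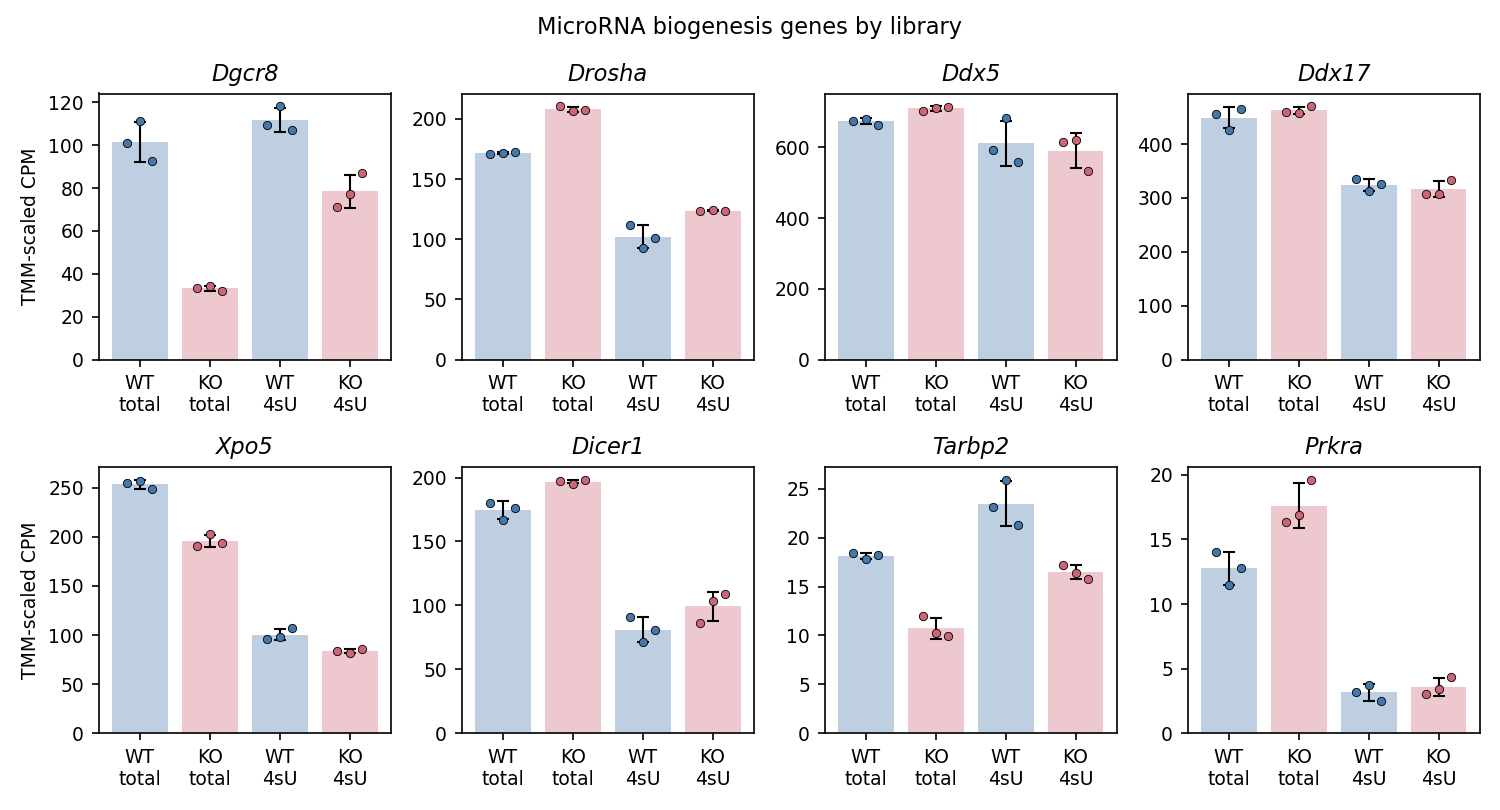
Expression of the 8 genes in each library, as TMM-scaled CPM on linear axes from 0, for WT and KO total RNA and WT and KO 4sU RNA (points, 3 libraries a group, with bars for the mean and error bars for the SD). Dgcr8 in KO total RNA lies at 32.0 to 34.1 CPM, against 92.5 to 111 CPM in WT, while Ddx5 and Ddx17 differ little between genotypes.

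The helicase genes were the most abundant of the 8 and neither passed the test in any comparison. Ddx5 (ENSMUSG00000020719.14, chr11:106780355-106788532, minus strand) had total RNA levels of 674, 681 and 664 CPM in WT and 703, 712 and 714 CPM in KO cells. The 2 ranges did not overlap, but the difference of 0.08 (log2, 95% confidence interval -0.03 to 0.19) did not pass the test (limma adjusted p = 0.212). The fit gave each gene 1 spread estimate, which total and 4sU libraries shared. For Ddx5 the SD was 8.72 CPM in WT and 6.25 CPM in KO total libraries, against 63.9 and 49.6 CPM in 4sU libraries. The total libraries were not tested alone. In nascent RNA the ranges overlapped, at 558 to 682 CPM in WT and 533 to 621 CPM in KO cells, with a difference of -0.05 (95% confidence interval -0.16 to 0.07). Ddx17 (ENSMUSG00000055065.6, chr15:79527707-79546741, minus strand) overlapped between genotypes in both fractions. Its total RNA levels were 455, 427 and 465 CPM in WT and 460, 458 and 470 CPM in KO cells, a difference of 0.04 (log2, 95% confidence interval -0.05 to 0.14). The nascent difference was -0.04 (95% confidence interval -0.15 to 0.07). For Ddx5 the change in the total-to-nascent ratio had a 95% confidence interval of -0.04 to 0.28, and for Ddx17 of -0.06 to 0.23. With library size as the only scaling Ddx5 passed the test in total RNA at 0.13 (limma adjusted p = 0.0252), and likewise with every gene of at least 1 count in the fit at 0.11 (limma adjusted p = 0.0283).

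Ddx5 also contains annotated miRNA genes on its own strand, which had reads. Mir3064 (chr11:106782693-106782759) partly overlaps a coding exon and had 16 to 34 counts in total RNA libraries and 44 to 74 counts in 4sU libraries. Gm25994 (chr11:106783171-106783271), annotated as a miRNA gene outside the exons of the principal transcript, had 83 to 122 counts in total and 251 to 333 counts in 4sU libraries. Both had more counts in every 4sU library than in any total library, although the 4sU libraries were smaller. The mature sequences of Mir3064 (RefSeq, GRCm38.p6, seeds in capitals) are given because this is the only one of the miRNAs within these genes that was both counted in every library and listed in RefSeq.
mmu-miR-3064-5p: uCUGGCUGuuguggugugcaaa
mmu-miR-3064-3p: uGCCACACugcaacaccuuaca
Neither gene passed the test between genotypes. Mir3064 differed by 0.03 in total (limma adjusted p = 0.948) and -0.00 in nascent RNA (limma adjusted p = 0.991), and Gm25994 by 0.09 (limma adjusted p = 0.598) and -0.10 (limma adjusted p = 0.336). Reads over these intervals may come from the Ddx5 precursor RNA as well as from a hairpin, which counts per gene do not separate.

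Xpo5 (ENSMUSG00000067150.5, chr17:46202855-46242299, plus strand), the exporter of miRNA precursors, was lower in KO cells in both fractions. In total RNA its level was 255, 257 and 249 CPM in WT and 191, 202 and 193 CPM in KO libraries. The groups did not overlap, and Xpo5 fell by 0.38 (log2, SE 0.0507, limma adjusted p = 1.05e-07). In nascent RNA it was 96.3, 98.1 and 107 CPM in WT and 83.6, 81.5 and 86.0 CPM in KO cells, and fell by 0.26 (SE 0.0684, limma adjusted p = 0.00157). The ratio of total to nascent RNA differed by -0.11 with a 95% confidence interval of -0.29 to 0.06, and did not pass the test. The intronic hairpin gene Mir693 had at most 1 count in a total and 6 in a 4sU library.

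Dicer1 (ENSMUSG00000041415.10, chr12:104687742-104751952, minus strand), the cytoplasmic nuclease, was higher in KO cells by a small amount. Its total RNA level was 180, 167 and 176 CPM in WT and 197, 195 and 198 CPM in KO libraries. The groups did not overlap, and Dicer1 rose by 0.18 (log2, SE 0.0636, limma adjusted p = 0.0164). The test was no longer passed without WT replicate 2, the lowest of the WT libraries, at 0.13 (limma adjusted p = 0.0817), and without voom weights (limma-trend) at 0.17 (limma adjusted p = 0.0575). In nascent RNA the ranges overlapped, at 91.2, 71.3 and 80.4 CPM in WT and 86.6, 103 and 109 CPM in KO cells. The fitted difference of 0.29 passed the test (SE 0.0834, limma adjusted p = 0.00402). That SE rests on a spread shared with the total libraries, which varied less for Dicer1. The SD was 9.95 CPM in WT and 11.4 CPM in KO 4sU libraries, against 6.95 and 1.46 CPM in total libraries. The 4sU libraries were not tested alone. No change in stability was detected for Dicer1 (-0.11, 95% confidence interval -0.33 to 0.10).

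The genes of the DICER1 partners moved in opposite directions in total RNA. Tarbp2 (ENSMUSG00000023051.10, chr15:102518357-102523676, plus strand) had total RNA levels of 18.4, 17.8 and 18.2 CPM in WT and 11.96, 10.3 and 9.96 CPM in KO libraries. The groups did not overlap, the KO mean was 59.1% of the WT mean, and Tarbp2 fell by 0.75 (log2, SE 0.125, limma adjusted p = 4.13e-06). Its nascent RNA was 23.2, 25.9 and 21.3 CPM in WT and 17.2, 16.4 and 15.8 CPM in KO cells, and fell by 0.50 (SE 0.126, limma adjusted p = 0.00116). The nascent groups also did not overlap. The ratio of total to nascent Tarbp2 RNA differed by -0.25, with a 95% confidence interval of -0.61 to 0.11 that includes 0.

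Prkra (ENSMUSG00000002731.6, chr2:76629898-76648015, minus strand) had fewer counts than any of the other 7 genes in WT total and in both groups of 4sU libraries, though not in KO total libraries, where Tarbp2 had fewer. Total RNA levels were 14.1, 11.5 and 12.8 CPM in WT and 16.4, 16.9 and 19.6 CPM in KO libraries. The groups did not overlap, the KO mean was 138% of the WT mean, and Prkra rose by 0.46 (log2, SE 0.124, limma adjusted p = 0.00156). In nascent RNA it had only 14 to 23 counts per library, and the difference of 0.21 had a 95% confidence interval of -0.42 to 0.83. At this depth neither a nascent change nor a stability change of Prkra could be detected, the latter with an interval of -0.41 to 0.93.

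**Figure D2:**
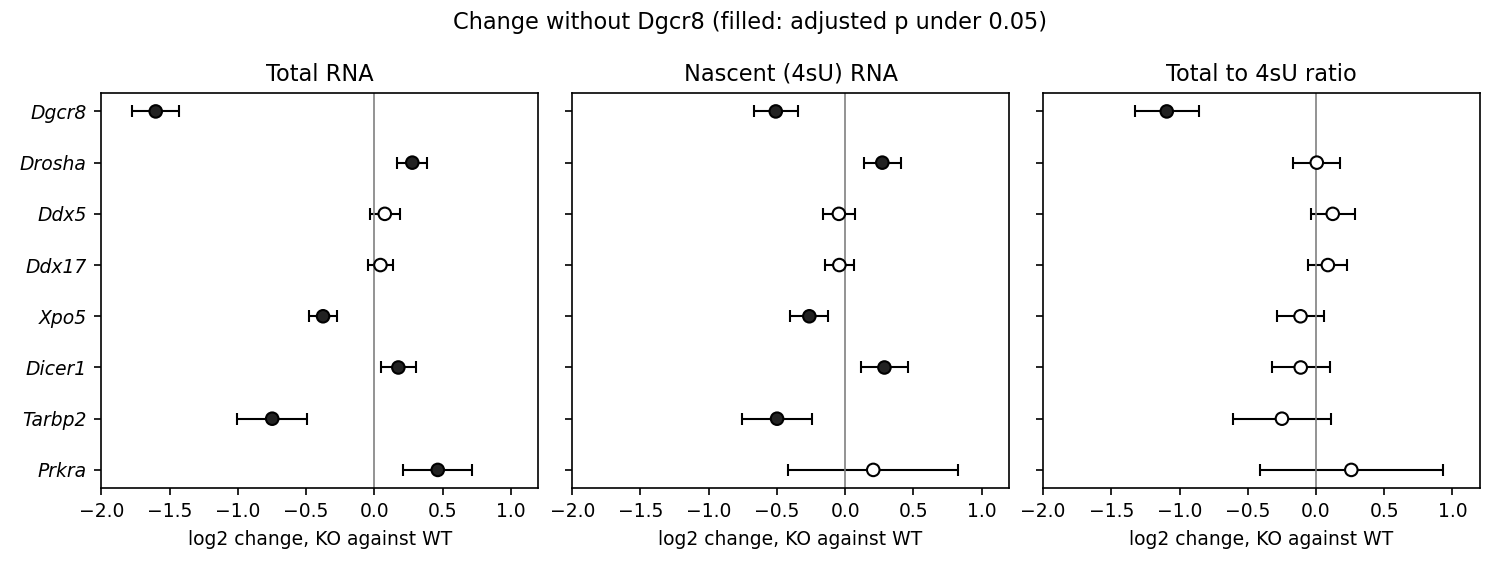
Log2 change of each gene in KO against WT cells for total RNA, nascent RNA and their ratio, with 95% confidence intervals from the limma fit and a line at 0 (filled points, adjusted p under 0.05). Dgcr8 is at -1.60, -0.51 and -1.09, and the interval of the ratio includes 0 for each of the other 7 genes.

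Counted over the 8 genes, 1 was called in total RNA at adjusted p under 0.05 with a change above 1 on the log2 scale, where 17.2% of all tested genes were called. It was Dgcr8, the gene targeted in the KO line, and none of the others was called. By adjusted p alone, 3 of the 8 were higher (Drosha, Dicer1 and Prkra), against 27.2% of all tested genes, and 3 were lower (Dgcr8, Xpo5 and Tarbp2), against 36.7%. In nascent RNA none was called, against 14.8% of all tested genes. By adjusted p alone 2 were higher (Drosha and Dicer1), against 28.3%, and 3 lower (Dgcr8, Xpo5 and Tarbp2), against 28%. These shares are of the same order as those of all genes, and the median change of the 8 was 0.06 in total and -0.04 in nascent RNA, against -0.09 and -0.02 over all tested genes.

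For the total-to-nascent ratio, 1 of the 8 was called, Dgcr8, where 1.76% of all tested genes were called. As the gene targeted in the KO line, Dgcr8 says nothing about the others, none of which was called. By adjusted p alone none was higher, against 5.02%, and 1 was lower, against 11.1%. Which way the ratio moved over all genes depended on scaling, with 44.9% of the called genes higher under TMM and 62.0% under RLE scaling (the size factors of DESeq2), and 31.1% against 52.2% by adjusted p alone. The Dgcr8 ratio stayed called under each of the 4 scalings tried, from -1.005 under RLE scaling, barely past the limit of 1, to -1.09 under TMM.

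Levels of different genes were compared per length, as TMM-scaled CPM per kb of counted exon. In WT total RNA the order was Ddx5 at 189.04 ± 2.45, Ddx17 at 94.3 ± 4.16, Xpo5 at 68.4 ± 1.22, Drosha at 37.5 ± 0.148, Dgcr8 at 22.4 ± 2.05, Dicer1 at 17.7 ± 0.706, Tarbp2 at 11.2 ± 0.196 and Prkra at 7.91 ± 0.802 (SD, n = 3). No neighbours in this order overlapped in their libraries. In KO total RNA Dgcr8 dropped from the fifth to the seventh place, at 7.34 ± 0.240 CPM per kb, behind Dicer1 (20.0 ± 0.149) and Prkra (10.9 ± 1.09) and overlapping with Tarbp2 (6.60 ± 0.667). The 4 most abundant kept their order, with Ddx5 at 199 ± 1.76, Ddx17 at 97.2 ± 1.39, Xpo5 at 52.7 ± 1.63 and Drosha at 45.5 ± 0.482.

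The order in nascent RNA was different in the middle of the range. In WT 4sU RNA Ddx5 (172 ± 17.96 CPM per kb) and Ddx17 (68.3 ± 2.34) led again, and Xpo5 (27.1 ± 1.56), Dgcr8 (24.6 ± 1.27) and Drosha (22.3 ± 2.05) followed with overlapping neighbours. Tarbp2 (14.4 ± 1.42), Dicer1 (8.22 ± 1.01) and Prkra (1.96 ± 0.396) came last, without overlap. In KO 4sU RNA Drosha (27.0 ± 0.0961) stood above Xpo5 (22.6 ± 0.620) and Dgcr8 (17.3 ± 1.74), and Tarbp2 (10.1 ± 0.430) and Dicer1 (10.1 ± 1.16) overlapped. Among all tested genes, the per-length levels of the 8 in WT total RNA ran from above 47.9% of genes for Prkra to above 97.7% for Ddx5.

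**Figure D3:**
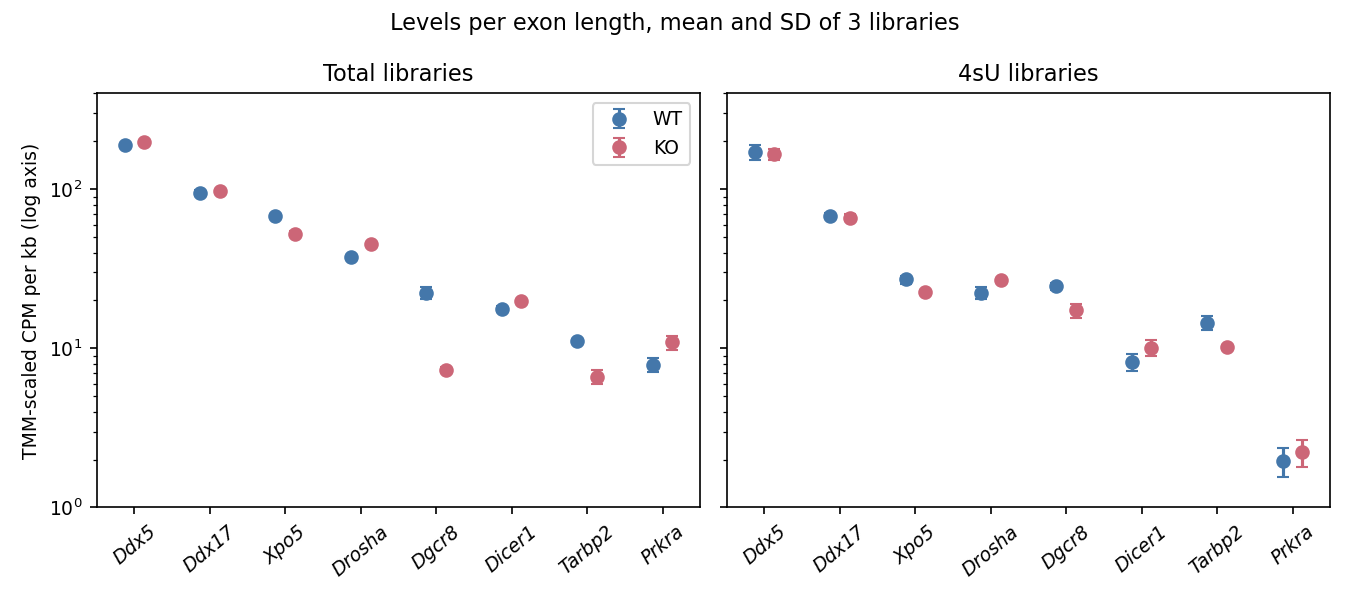
Per-length level of each gene in WT and KO cells, as TMM-scaled CPM per kb on a log axis, in total libraries (left) and 4sU libraries (right), with the mean and SD of 3 libraries. Dgcr8 lies at 22.4 CPM per kb in WT and 7.34 in KO total RNA, the widest gap between genotypes.

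Within a genotype, the total-to-nascent ratio of each gene was set against the median of all tested genes in the same pair of libraries. In WT cells Prkra had the highest ratio of the 8, at 2.03, 1.49 and 2.26 (log2) in the 3 pairs, above 97.5% of genes, but with 14 to 20 nascent counts behind each value. Xpo5 came next, at 1.31, 1.27 and 1.12, above 87.0% of genes, and Dicer1 after it at 0.89, 1.11 and 1.03, above 81.3%. These 3 genes and Drosha (0.65 ± 0.126, SD, n = 3), Ddx17 (0.36 ± 0.0416) and Ddx5 (0.04 ± 0.142) had means above the median gene. Dgcr8 at -0.21, -0.21 and -0.31 and Tarbp2 at -0.43, -0.66 and -0.33 lay below it in all 3 pairs. In the WT cells, then, the ratio was higher for Drosha, above 70.4% of genes, than for Dgcr8, above 42.9%, with no overlap between them. A difference between the 2 genes was not tested.

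In KO cells the ratio of Dgcr8 was -1.09, -1.18 and -1.43, below every WT value, and it exceeded that of 23.0% of genes. Tarbp2 stayed below the median at -0.63 ± 0.0798 (SD, n = 3), and the remaining 6 were above it, from 0.27 ± 0.141 for Ddx5 to 2.30 ± 0.133 for Prkra. Relative to these medians Xpo5 had nearly equal means in the 2 genotypes, 1.22 ± 0.0764 in KO and 1.23 ± 0.103 in WT cells, and so had Dicer1, 0.99 ± 0.162 and 1.01 ± 0.112. The medians themselves differed between genotypes, so these values need not match the fitted changes. Without centring Xpo5 was at 1.22 in KO and 1.34 in WT cells, Dicer1 at 0.99 and 1.11, and Drosha at 0.75 in both. A ratio of this kind ranks genes within a library pair and gives no half-life.

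**Figure D4:**
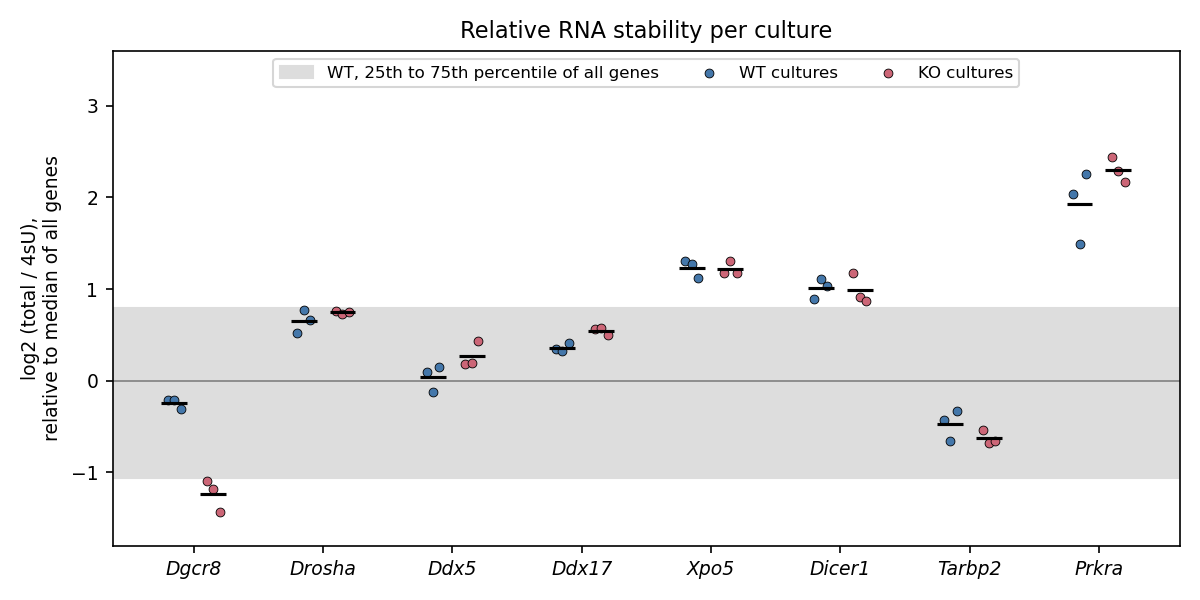
Log2 ratio of total to nascent RNA for each gene, relative to the median of all tested genes (0), in the 3 library pairs of each genotype (points, with bars at the means) against the range between the 25th and 75th percentiles of all genes in WT cells (grey band). Dgcr8 in KO cells lies at -1.43 to -1.09, against -0.31 to -0.21 in WT cells.

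Ratios between partners within a library do not depend on scaling between libraries. Per length, the log2 ratio of Dgcr8 to Drosha in total RNA was -0.74, -0.62 and -0.88 in WT and -2.63, -2.58 and -2.68 in KO cells, so that Dgcr8 RNA went from 0.596 to 0.161 of Drosha RNA. The ratio differed by -1.88, and no KO library overlapped a WT library (exact two-sided permutation test, p = 0.1, adjusted p = 0.133 over 8 tests), where 0.1 is the smallest p that 3 against 3 libraries allow. In nascent RNA the same ratio averaged 0.14 ± 0.192 in WT and -0.65 ± 0.143 in KO cells (SD, n = 3). Tarbp2 exceeded Prkra in every WT total library, at 0.38, 0.63 and 0.50, and was below it in every KO total library, at -0.46, -0.73 and -0.99. That ratio of the DICER1 partners differed by -1.23 in total and -0.70 in nascent RNA without overlap, each with an exact permutation p of 0.1. For Xpo5 to Dicer1 the total libraries averaged 1.95 ± 0.0739 in WT and 1.40 ± 0.0536 in KO cells and the 4sU libraries 1.73 ± 0.208 and 1.17 ± 0.165, also without overlap and each with an exact permutation p of 0.1. Ddx5 to Ddx17 overlapped between genotypes, at 1.00 ± 0.0817 and 1.04 ± 0.0169 in total RNA (exact permutation p = 0.6) and at 1.33 ± 0.190 and 1.32 ± 0.191 in nascent RNA (exact permutation p = 1).

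**Figure D5:**
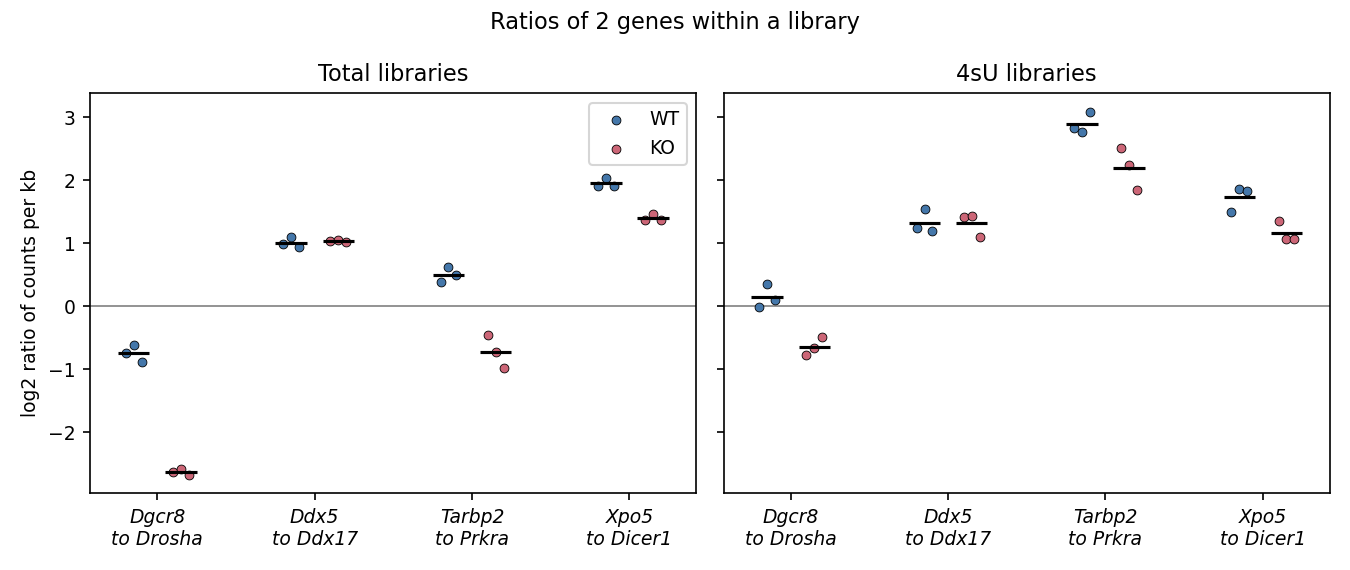
Log2 ratio of the per-length levels of 4 pairs of genes within each library (points, 3 libraries a group, bars at the means), in total and 4sU RNA of WT and KO cells. Only Ddx5 to Ddx17 overlaps between genotypes, and Dgcr8 to Drosha in total RNA goes from a mean of -0.75 to one of -2.63.

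The best known miRNAs of mouse ESCs carry the seed AAGUGC, as in the sequences below from the miR-290 and miR-302 clusters, given because the Microprocessor crops their hairpins (RefSeq, GRCm38.p6, chr7:3220691-3220712 and chr3:127545275-127545297, both plus strand).
mmu-miR-294-3p: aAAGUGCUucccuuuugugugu
mmu-miR-302b-3p: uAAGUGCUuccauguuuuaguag
A match of 7 letters to this seed, either AGCACTT or GCACTTA, was looked for in the sense strand of each gene's 3' untranslated region. Where a gene had several transcripts, the longest such region among them was used. Of the 8 genes only Dicer1 had one. It is GCACTTA, starting from base 1422 of 3851, and is shown in capitals within 30 bases of its transcript.
Dicer1 site: tcatgtaatgctGCACTTAggttcaagtca
Among 11816 tested genes with such a region, 21.3% held a match, so 1 of 8 is not far from the share of all genes. The shorter GCACTT, with or without an added letter, occurred 2 times in Ddx17, 1 time in Ddx5 and 2 times in Dicer1, its site included. Dicer1 has the longest such region of the 8 and Drosha, with 169 bases, the shortest, and the median of tested genes was 1202 bases. A match is a description of the sequence and not evidence that it is bound, and the Dicer1 total-to-nascent ratio did not pass the test between genotypes.

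The rest of the pathway was described with 34 other genes, all of which were tested. They include cofactors of the nuclear step, other export factors, Argonaute and loading genes, and genes that control miRNA precursors. In total RNA 7 of the 34 were higher and 21 lower by adjusted p, against 27.2% and 36.7% of all tested genes, with a median change of -0.24 against -0.09. In nascent RNA 7 were higher and 18 lower, against 28.3% and 28% of all tested genes, with a median of -0.18 against -0.02. Among the 17 genes of the nuclear step 12 were lower and 1 higher in total RNA, and 11 lower and none higher in nascent RNA. These counts are to be read against the same shares of all genes, and no difference between this group and other genes was tested. Among the 8 genes of loading 4 were higher and 3 lower in total RNA. For the total-to-nascent ratio 2 of the 34 were higher and 4 lower, against 5.02% and 11.1% of all tested genes, which is close to the share of all genes.

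Of these 34 genes 3 were called in total RNA, where 17.2% of all tested genes were, 2 of them also in nascent RNA, against 14.8%, and none for the ratio, against 1.76%. Ago1, which encodes an Argonaute protein that holds the mature miRNA, rose by 1.23 in total RNA (log2, SE 0.0607, limma adjusted p = 1.11e-17) and by 0.65 in nascent RNA (limma adjusted p = 6.40e-09). Lin28b, a gene of a let-7 precursor-binding protein, rose by 2.72 in total RNA (limma adjusted p = 2.40e-19) and by 3.12 in nascent RNA (limma adjusted p = 3.75e-14). Its paralog Lin28a fell, from 668 to 964 counts in the WT total libraries to 1 to 9 in the KO total libraries, and in nascent RNA from 160 to 232 counts to 2 to 3 counts, at least 62.5-fold lower against a floor of 3 counts per library. For the ratio, 2 genes passed by adjusted p with higher values, Ago1 and Mettl3, and 4 with lower values, Ran, Xpo1, Adar and Trim71. The 5 of these other than Ago1 were named after their values were seen. Ran, the GTPase that binds XPO5 with its cargo, fell by 0.60 in total RNA (limma adjusted p = 3.46e-12), by 0.21 in nascent RNA (limma adjusted p = 0.00279) and by 0.39 in the ratio (limma adjusted p = 0.00044).

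Profiles over the 12 libraries were compared by Pearson's r of log2 CPM, as a description only, since the points share RNA fraction and genotype. Closest to Dgcr8 were Samd8 (r = 0.989), Slc35e1 (0.979) and Nip7 (0.978). Closest to Drosha were Snap47 (0.997), Eefsec (0.995) and Apaf1 (0.994), and closest to Dicer1 were Rnf115, Atp6v1c1 and Clint1 (each 0.995). Among the 8 genes the profiles of Drosha and Dicer1 had an r of 0.981 and those of Dgcr8 and Tarbp2 one of 0.938, whereas Dgcr8 and Drosha had an r of -0.73.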

How the data were processed

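The authors trimmed reads with cutadapt 1.14, aligned them with STAR 2.5.3a to mm10 and counted uniquely mapped reads per gene, on the strand of the gene, with featureCounts 1.5.3 and the GENCODE M14 basic annotation. The deposited values are raw counts for 51559 rows in 12 libraries, which were tested as deposited, and 51274 row IDs matched a symbol. The 92 spike-in rows held 1 count in all and were left out. Genes with at least 3 CPM in at least 3 libraries (14033) were scaled by TMM (edgeR 4.0.16) and fitted with voom weights in limma 3.58.1 (R 4.3.3), all 12 libraries in 1 model of the 4 groups. Each gene thus had 1 estimate of its spread, which total and 4sU libraries shared. The filter, limma and the interaction of assay and genotype follow the study's methods, whereas TMM and voom were chosen here. Contrasts were KO against WT in total RNA, in 4sU RNA, and their difference. P-values were adjusted by Benjamini-Hochberg over all tested genes, and a gene was called at adjusted p under 0.05 with an absolute log2 change above 1. The log2 CPM behind the profile comparisons and the deviations of same-numbered libraries used a prior count of 2. The log2 ratios of single libraries and library pairs used none. The scripts were tested on simulated data.

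The 8 genes and the lists were chosen with earlier results of these data known. Named beside the 8 were listed pathway genes called in any contrast, genes overlapping one of the 8, and the 3 closest profiles of Dgcr8, Drosha and Dicer1. Alternatives were other scalings, filters and tools (edgeR, DESeq2 1.42.0, limma-trend), replicate blocks and leaving out each library. Replicate numbers did not pair the genotypes.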

Additional observations from a re-analysis of the deposited data

Results flagged for a closer look

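The 8 genes, the listed pathway genes called in any contrast and the genes overlapping one of the 8 were screened. Among them the genotype effect differed between total and nascent RNA for Dgcr8 and for Ago1, by the test of that difference. Ran, Xpo1, Trim71, Adar and Mettl3, outside this selection, also passed that test by adjusted p. Over all tested genes, 5.02% passed it with a higher and 11.1% with a lower ratio. For Dgcr8 the total-to-nascent ratio differed by -1.09 (log2, KO minus WT, limma adjusted p = 3.11e-08), and all 3 KO library pairs were below all 3 WT pairs. For Ago1, an Argonaute gene outside the 8, it differed by 0.59 (limma adjusted p = 3.91e-05), under the limit of 1 for a call.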

How the results depend on the processing

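Of 365 recomputed changes of the 8 genes, 355 kept their direction and their side of adjusted p 0.05, the fold limit left aside. Those that reversed were all near 0 and past no threshold. In the fits, each replicate of a genotype was left out with its total and its 4sU library together. This gave -0.00204 to 0.0637 for Ddx17 in total RNA (reversed without WT replicate 2). For Ddx5 in nascent RNA it gave -0.112 to 0.0440 (reversed without WT replicate 2, at 0.0262, and KO replicate 3). The Drosha ratio ran from -0.0703 to 0.0628 (reversed without WT or KO replicate 1), and was -0.00044 with limma-trend. Ddx5 in total RNA passed with library size as the only scaling (0.13) and without a filter (0.11), and Dicer1 in total RNA failed with limma-trend (0.17) and without WT replicate 2 (0.13). Leaving out 1 library, the partner ratio of Ddx5 to Ddx17 differed by -0.00326 to 0.0768 in total and -0.0748 to 0.102 in 4sU RNA. With no limit on the fold, 6 of the 8 genes passed in total and 5 in nascent RNA, and 28, 25 and 6 of the 34 other genes in total, nascent and ratio. Leaving out a replicate of a genotype gave 0 to 1 of the 8 called for the ratio. Among the other genes 1 was called in nascent RNA with 3 CPM in all 12 libraries, and 1 for the ratio with limma-trend. All genes called numbered 4002, 3801 and 341 without a filter, 1045, 837 and 115 with 3 CPM in all 12 libraries (where Prkra was not tested), and 8971, 7898 and 2261 with no fold limit, in total, nascent and ratio. Without centring, the WT ratios of Dgcr8, Ddx17 and Xpo5 were -0.14, 0.47 and 1.34. A block by replicate number in the fit gave 2438, 2051 and 293 called genes, with Dgcr8 at -1.60, -0.51 and -1.09. The main fit treated total and 4sU libraries of the same RNA sample as independent. A block by these library pairs, fitted for the ratio only, gave 262 called genes, with Dgcr8 at -1.09. Neither block changed a call of the 8 genes. Same-numbered libraries of the 2 genotypes had deviations that correlated at -0.0825 to 0.0777, so the numbers do not pair them. The nascent counts of Prkra (14 to 23) limit what can be detected for that gene.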

Other observations

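Genes on the opposite strand that overlap the 3' end of one of the 8 were also measured, and the counting used strand. Trmt2a, which encodes a tRNA methyltransferase and overlaps the end of Dgcr8, fell by 0.73 in total RNA (log2, limma adjusted p = 1.19e-10) and by 0.42 in nascent RNA (limma adjusted p = 7.13e-05), and its total-to-nascent ratio differed by -0.31 (limma adjusted p = 0.0504). Kdelr3, which encodes a receptor that retrieves proteins to the endoplasmic reticulum and overlaps the end of Ddx17, fell by 1.68 in total RNA (limma adjusted p = 7.83e-12) and by 1.19 in nascent RNA (limma adjusted p = 8.19e-05), while Ddx17 did not pass the test in either. Whether overlap between the genes bears on these values was not tested.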
